A study of Homo sapiens with 18 samples.

Results

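The Siglec family is a group of sialic acid-binding receptors of the immunoglobulin superfamily. The 10 members described here were the rows of the deposited expression table whose Ensembl gene IDs map to SIGLEC1, CD22, CD33, SIGLEC5, SIGLEC6, SIGLEC7, SIGLEC9, SIGLEC10, SIGLEC11 and SIGLEC14, out of 40184 genes. The list was chosen by gene family, with its levels under vehicle and its changes under drug in these same libraries already known, and SIGLEC1 was singled out by its change. Levels and changes of the members are therefore a description, with standard errors but with no p-value.

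Libraries were made from 3 established cell lines of human acute myeloid leukaemia. The receptor gene FLT3 holds an internal tandem duplication (FLT3-ITD) in Molm-14 and MV4-11, and SKNO-1 has the KIT N822K mutation. Cultures of each line received the vehicle DMSO or RMC-4550 at 500 nM for 24 h, with 3 biological replicates in each of the 6 groups. RMC-4550 is an allosteric inhibitor of SHP2, the phosphatase encoded by PTPN11 that carries signals of receptor tyrosine kinases on to RAS. Human GM-CSF at 10 ng/mL was in the medium of SKNO-1 alone, so effects of that line and of the growth factor cannot be told apart. Each line stands for 1 patient's leukaemia after long culture, and no normal cells were among the libraries. How the biological replicates were made is not given beyond that name, so the errors measure the spread between these cultures.

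Siglecs sit on the surface of white blood cells and bind sialic acids, the sugars that cap many glycans on cells. Most of them carry tyrosine motifs in their tails that recruit the phosphatases SHP1 and SHP2 and dampen activating signals. SIGLEC1 (sialoadhesin, CD169) has no such motif, is a marker of macrophages and is known as an interferon-induced gene. SIGLEC14 lacks the inhibitory motif as well and signals through the adaptor DAP12, the product of TYROBP. CD33 is a surface marker of myeloid cells and of most acute myeloid leukaemias, and CD22 is best known from B cells.

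Read totals ran from 17434810 to 19959917 per library. Levels are given in reads or in CPM, the usual counts scaled to a common library size, here with the authors' scaling factor. Mitochondrial genes took 10.5% to 15.02% of reads in 4 libraries, against 5.07% to 7.02% in the other 14. These were replicate 2 of Molm-14 with RMC-4550, replicates 1 and 3 of MV4-11 with DMSO and replicate 1 of MV4-11 with RMC-4550, and the changes of the tested members and of the genes named from the pathway lists are also given without them where they rest on these libraries. With DMSO, 9261 genes reached 10 CPM in Molm-14, and of these 0 had less than 1% of their Molm-14 level in MV4-11 and 69 had less in SKNO-1. Of 9416 such genes in MV4-11, 61 had less than 1% of their level in Molm-14 and 29 in SKNO-1, and of 9244 in SKNO-1, 123 had less in Molm-14 and 13 in MV4-11. In each group, 7 of 8 myeloid markers averaged at least 1 CPM. The B cell gene MS4A1 and the T cell genes CD3D, CD3E and CD3G had 3 reads or fewer in every library. Other markers of these lists were read. By group, 2 to 4 of 6 B cell markers averaged at least 1 CPM, and the 6 summed to 9.33 to 21.7 CPM. Of 6 T and NK cell markers 1 did in each group, and they summed to 25.7 to 55.9 CPM.

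In the GENCODE 29 annotation of GRCh38, SIGLEC1 lies alone on chromosome 20 at 3686970-3707128, on the minus strand. The other 9 members lie on chromosome 19, with CD22 at 35319261-35347355 and the rest between SIGLEC11 at 49948985-49961172 and SIGLEC14 at 51642553-51646801. Several members resemble a neighbour so closely that reads from them may not be told apart. Of the stretches of 50 bases in its longest transcript, SIGLEC5 shared 82.2% with another gene, SIGLEC11 39.1% and SIGLEC14 33.8%. For SIGLEC5 most of these matched AC018755.2, a gene on the same strand that covers 74.5% of the SIGLEC5 exon bases and is not analysed here. For SIGLEC11 the leading match was SIGLEC16, and for SIGLEC14 it was SIGLEC5. SIGLEC7 shared 25.0%, SIGLEC10 22.1% and SIGLEC6 17.9%, mostly with antisense genes. CD33 shared 0.513%, and SIGLEC1 and CD22 shared 0. Whether the authors counted by strand, and how they treated reads that match several places, are not given in the sources used here, so the values of SIGLEC5, SIGLEC11 and SIGLEC14 are uncertain, and those of SIGLEC6, SIGLEC7 and SIGLEC10 may hold antisense reads.

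For some pairs the likeness extends into the bases before the start. The RefSeq promoter table (GRCh38.p14) held a window for 9 of the 10 members, and SIGLEC1 was not matched. The windows below are the 250 bases before the start, 5′ to 3′ on the gene's strand, and they are shown because each pair carries a long identical run, in capitals. For SIGLEC5 (chr19:51630402-51630651, minus) and SIGLEC14 (chr19:51646826-51647075, minus) the run is 113 bases and ends at the start itself.
SIGLEC5: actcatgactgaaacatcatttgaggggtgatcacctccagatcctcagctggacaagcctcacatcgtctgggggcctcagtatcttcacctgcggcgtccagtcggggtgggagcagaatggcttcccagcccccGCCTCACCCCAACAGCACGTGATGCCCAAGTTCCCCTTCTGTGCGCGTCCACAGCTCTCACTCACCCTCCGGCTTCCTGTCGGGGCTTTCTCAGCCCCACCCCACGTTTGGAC
SIGLEC14: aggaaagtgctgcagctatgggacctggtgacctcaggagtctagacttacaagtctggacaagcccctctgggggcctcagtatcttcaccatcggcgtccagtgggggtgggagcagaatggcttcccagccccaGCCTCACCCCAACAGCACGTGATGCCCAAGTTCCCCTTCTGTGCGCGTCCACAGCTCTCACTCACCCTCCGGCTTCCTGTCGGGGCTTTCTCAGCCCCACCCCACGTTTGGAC
For SIGLEC11 (chr19:49961173-49961422, minus) and SIGLEC16 (chr19:49969414-49969663, plus), a neighbouring gene annotated as a transcribed pseudogene, the run is 134 bases. It begins at base -161 in SIGLEC11 and at base -250 in SIGLEC16, and reaches neither start.
SIGLEC11: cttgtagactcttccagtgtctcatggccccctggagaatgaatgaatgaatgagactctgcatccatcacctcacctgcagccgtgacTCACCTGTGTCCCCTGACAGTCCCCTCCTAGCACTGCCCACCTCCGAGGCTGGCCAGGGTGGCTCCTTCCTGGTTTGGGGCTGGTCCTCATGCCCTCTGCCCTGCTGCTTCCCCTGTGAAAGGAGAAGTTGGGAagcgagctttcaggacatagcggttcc
SIGLEC16: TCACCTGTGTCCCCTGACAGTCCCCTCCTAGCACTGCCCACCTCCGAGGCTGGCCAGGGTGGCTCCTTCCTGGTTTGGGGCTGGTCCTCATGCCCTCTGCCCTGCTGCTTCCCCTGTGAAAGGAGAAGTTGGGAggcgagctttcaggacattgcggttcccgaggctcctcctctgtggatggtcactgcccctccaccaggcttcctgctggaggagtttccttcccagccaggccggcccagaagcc

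The same windows were searched on both strands for 5 motifs: the core of the interferon-stimulated response element (GAAA, a pair of any bases, and GAAA); TTCNNNGAA, bound by STAT factors; GAGGAAGT, bound by PU.1; TGTGGT, bound by RUNX factors; and TGANTCA, bound by AP-1. No motif overlapped another in the members. The member windows held 2 matches, the STAT motif TTCTGTGAA in SIGLEC6 at base -68 from the start and the AP-1 motif TGACTCA in SIGLEC11 at base -165. Over 35116 RefSeq windows of this length, the STAT motif stood in 6.57%, the AP-1 motif in 6.57%, the interferon element in 3.02%, the PU.1 motif in 2.17% and the RUNX motif in 11.0%.

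CD33 made up most of the family's transcripts in every group. It averaged 46.4 ± 1.15 CPM (SD, n = 3) in Molm-14 with DMSO, 118 ± 4.66 CPM in MV4-11 and 158 ± 4.60 CPM in SKNO-1. In reads, the DMSO libraries held 857, 786 and 830 in Molm-14, 2207, 2214 and 2047 in MV4-11, and 3308, 3481 and 3424 in SKNO-1. The 3 lines did not overlap in CPM. Over all genes tested, SKNO-1 lay wholly above Molm-14 for 40.5%, MV4-11 above Molm-14 for 27.8% and SKNO-1 above MV4-11 for 26.5%. The order of CD33 was Molm-14, then MV4-11, then SKNO-1. On the log2 scale CD33 was 1.77 higher in SKNO-1 than in Molm-14, 1.35 higher in MV4-11 than in Molm-14 and 0.42 higher in SKNO-1 than in MV4-11 (SE 0.0888 each).

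The summed level of the 10 members with DMSO was 49.6 ± 1.35 CPM in Molm-14, 139 ± 4.17 CPM in MV4-11 and 189 ± 3.10 CPM in SKNO-1. CD33 supplied 93.6%, 85.0% and 83.7% of these sums. Per kilobase of exon, where genes can be set against each other, CD33 stood at 7.76 CPM in Molm-14, 19.8 CPM in MV4-11 and 26.4 CPM in SKNO-1. The next member in Molm-14 was SIGLEC10 at 0.511 CPM per kilobase. In SKNO-1, SIGLEC6 at 3.58, SIGLEC7 at 3.25 and SIGLEC10 at 2.41 CPM per kilobase followed CD33, and in MV4-11 the same members stood at 2.49, 2.26 and 1.59. In bulk RNA, fewer cells with a transcript and less transcript per cell cannot be told apart.

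**Figure D1:**
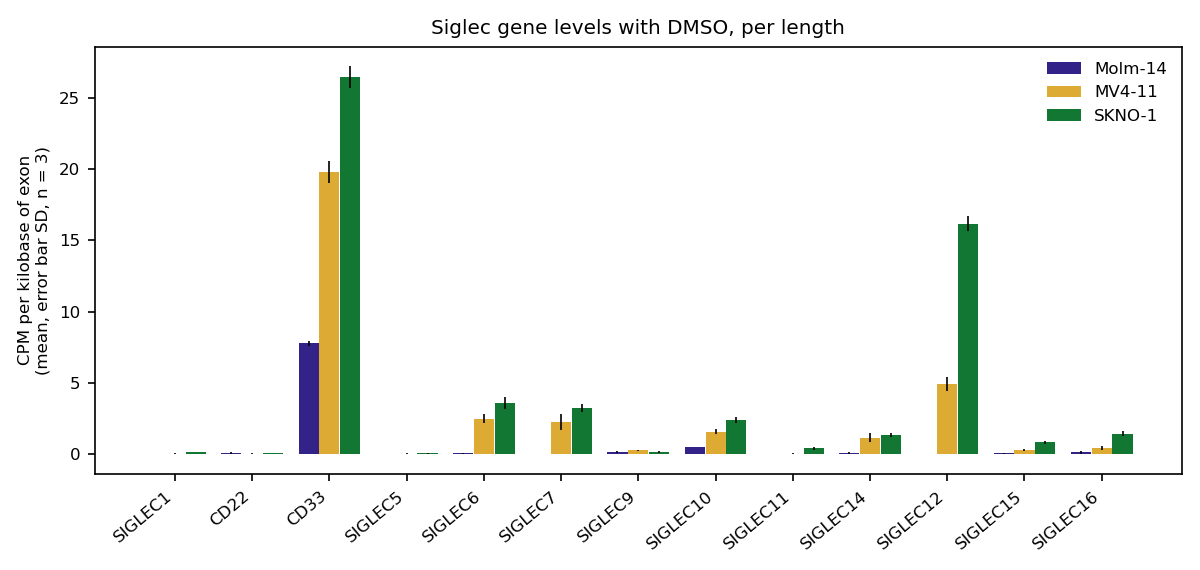
Level of 13 Siglec genes with DMSO, in CPM per kilobase of exon (vertical axis), for Molm-14, MV4-11 and SKNO-1; bars are means and error bars the SD of 3 libraries. CD33 is the tallest bar in each line (7.76, 19.8 and 26.4), and SIGLEC12, which is not among the 10 members, is second in SKNO-1 at 16.2.

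SIGLEC7, SIGLEC6 and SIGLEC10, members with inhibitory tails, separated Molm-14 from the other lines. SIGLEC7, best known from natural killer cells, had 0, 1 and 0 reads in Molm-14 with DMSO, 69, 114 and 72 in MV4-11, and 153, 129 and 147 in SKNO-1. Against the level that 3 reads per Molm-14 library would give, it was at least 27.3-fold higher in MV4-11 and at least 39.3-fold higher in SKNO-1. SIGLEC6, known from placenta and mast cells, had 1, 3 and 5 reads in Molm-14, 116, 143 and 95 in MV4-11, and 227, 192 and 178 in SKNO-1. Its mean was 0.169 ± 0.112 CPM in Molm-14, 6.41 ± 0.828 CPM in MV4-11 and 9.22 ± 1.10 CPM in SKNO-1. For both genes the libraries of MV4-11 and SKNO-1 did not overlap in CPM, by a narrower gap than that to Molm-14.

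SIGLEC10, an inhibitory receptor that binds CD24, was read in all 3 lines. It had 36, 31 and 33 reads in Molm-14 with DMSO, 102, 108 and 108 in MV4-11, and 209, 183 and 179 in SKNO-1, with no overlap between lines. It was 2.21 higher on the log2 scale in SKNO-1 than in Molm-14, 1.62 higher in MV4-11 than in Molm-14 and 0.60 higher in SKNO-1 than in MV4-11 (SE 0.142 each). SIGLEC14 had 6, 1 and 1 reads in Molm-14, 46, 33 and 51 in MV4-11, and 60, 66 and 53 in SKNO-1. The last 2 groups overlapped in CPM, at 2.41 ± 0.685 in MV4-11 and 2.76 ± 0.267 in SKNO-1. SIGLEC5 shares its promoter run and much of its transcript with SIGLEC14 and had 4 reads or fewer in every DMSO library.

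The remaining members were scarce with DMSO. SIGLEC1 had 0 reads in each Molm-14 library, 10, 5 and 4 in MV4-11, and 24, 22 and 26 in SKNO-1, so its order was that of CD33. It was at least 2.04-fold higher in MV4-11 and at least 6.59-fold higher in SKNO-1 than in Molm-14, again with 3 reads per library as the floor. SIGLEC11 was at 1 read or fewer per library in Molm-14, at 5, 3 and 1 in MV4-11 and at 18, 33 and 32 in SKNO-1, at least 7.60-fold higher in SKNO-1 than in Molm-14. SIGLEC9, an inhibitory receptor of neutrophils and monocytes, had between 3 and 14 reads and CD22 between 4 and 15, and for both, Molm-14 overlapped SKNO-1.

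Counting members at 1 CPM or more on average, Molm-14 with DMSO had 2, MV4-11 5 and SKNO-1 7. Of the members that could be tested, 6 of 6 were called higher in SKNO-1 than in Molm-14, 5 of 5 in MV4-11 than in Molm-14, and in SKNO-1 against MV4-11 it was 3 of 6. A call is an adjusted p under 0.05 in limma, and a gene was tested where at least 3 libraries of the comparison had 1 CPM or more. Over all genes tested, 31.8%, 25.1% and 20.1% were called higher in these comparisons. Replicate 2, the 1 DMSO library of MV4-11 under 10% mitochondrial reads, held 113 CPM of CD33, 7.31 of SIGLEC6, 5.83 of SIGLEC7, 5.52 of SIGLEC10 and 1.69 of SIGLEC14. Low members passed the filter only through the line where they were high, so nothing is read from the counts.

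**Figure D2:**
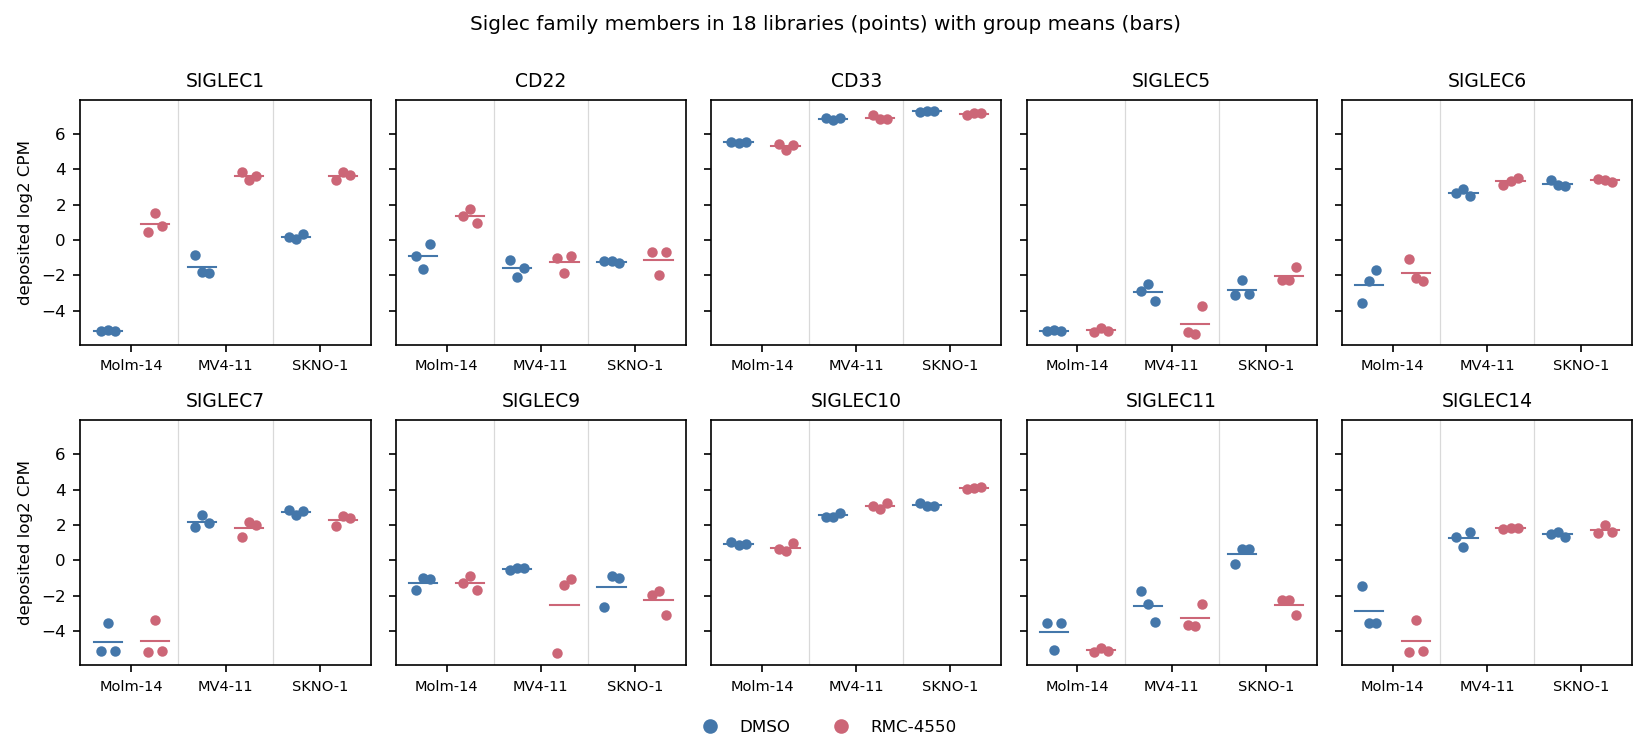
Deposited log2 CPM (vertical axis) of the 10 members in the 3 lines named below each panel; each point is a library, bars are means of 3, blue is DMSO and red RMC-4550. SIGLEC1 with RMC-4550 lies above DMSO in all 3 lines, CD22 in Molm-14, and the CD33 points lie near each other within a line; values near -5 are libraries at 0 reads.

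With RMC-4550, SIGLEC1 showed the largest change of the tested members in each line. In Molm-14 it went from 0 reads in each of 3 DMSO libraries to 25, 44 and 30 reads, or 1.96 ± 0.761 CPM. That is at least 11.6-fold higher than the level 3 reads per library would give. In MV4-11 it went from 10, 5 and 4 reads to 275, 212 and 241, and in SKNO-1 from 24, 22 and 26 to 228, 312 and 282. No library of one treatment overlapped the other in any line. Treated libraries lay wholly above DMSO for 26.9% of all genes tested in Molm-14, 11.1% of those in MV4-11 and 26.6% of those in SKNO-1.

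Mean SIGLEC1 levels were 0.344 ± 0.168 CPM with DMSO and 12.5 ± 1.91 CPM with RMC-4550 in MV4-11, a ratio of 36.3. In SKNO-1 they were 1.11 ± 0.107 and 12.7 ± 1.98 CPM, a ratio of 11.4. The log2 changes were 5.15 in MV4-11 and 3.47 in SKNO-1 (SE 0.298 each). The change in SKNO-1 was thus 1.68 below that in MV4-11 (SE 0.422). The treated levels of these lines overlapped, and the treated Molm-14 libraries, at 1.37 to 2.82 CPM, lay below both. SIGLEC1 was 4.26% of the family sum in Molm-14 with RMC-4550, 7.74% in MV4-11 and 6.55% in SKNO-1, against 0, 0.248% and 0.590% with DMSO.

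These values were much the same without the libraries with over 10% mitochondrial reads. In Molm-14 the remaining 2 treated libraries held 25 and 30 reads of SIGLEC1 and averaged 1.53 CPM. In MV4-11, 1 DMSO library with 5 reads and 2 treated libraries with 212 and 241 remained, and their log2 difference was 5.35.

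**Figure D3:**
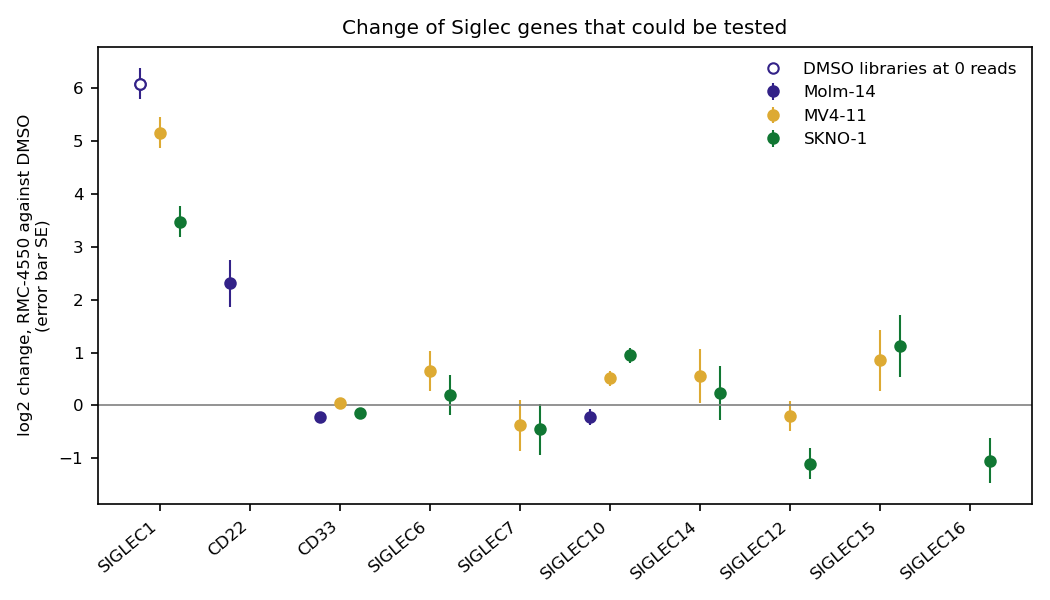
Log2 change with RMC-4550 against DMSO (vertical axis) for the members and other Siglec genes that could be tested in each line; points are fitted changes, error bars SE, and colours are lines. SIGLEC1 stands highest in each line (5.15 in MV4-11, 3.47 in SKNO-1); the open point is the Molm-14 value, which is fitted against 0 reads and depends on the 0.5 reads added before the logarithm.

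Of the 10 members, 4 could be tested in Molm-14, and 6 in each of MV4-11 and SKNO-1. In each line 2 were called higher and 0 lower. The background over all genes tested was 21.5% called higher and 25.2% lower in Molm-14, 5.85% and 8.03% in MV4-11, and 10.8% and 16.2% in SKNO-1. With median-ratio scaling, 53.4% of the Molm-14 calls, 51.4% of the MV4-11 calls and 53.2% of the SKNO-1 calls were higher, against 45.95%, 42.2% and 40.01% with the authors' scaling. The median log2 change of the tested members was 1.05, 0.54 and 0.22 (lines in the same order), beside -0.058, -0.010 and -0.047 over all genes. SIGLEC1 in Molm-14 and MV4-11, and CD22 in Molm-14, reached 1 CPM only in treated libraries. Since the changes were also known when the list was made, nothing is read from the counts of members.

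CD22 was the other member called higher in Molm-14, which is a description. Its DMSO libraries there held 0.288 to 0.836 CPM, so it passed the filter only through the treated libraries. Its reads were 9, 5 and 15 with DMSO and 47, 53 and 34 with RMC-4550, and the groups did not overlap. The log2 change was 2.30 (SE 0.436), from 0.541 ± 0.276 to 2.63 ± 0.738 CPM. Without treated replicate 2, which had over 10% mitochondrial reads, it was 2.10. In MV4-11 CD22 had 8, 4 and 5 reads with DMSO and 9, 5 and 10 with the drug, and in SKNO-1 9, 9 and 8 against 13, 5 and 13, so the groups overlapped there.

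Of 6 B cell markers, 3 could be tested in Molm-14, and 0 were called higher and 1 lower, with a median log2 change of 0.12. Calls over all genes tested were 21.5% higher and 25.2% lower there. The B cell identity factor PAX5 changed by -1.25 on the log2 scale in Molm-14 (adjusted p = 0.00184, limma), from 15.8 to 6.78 CPM. MS4A1 and CD79B were at 3 reads or fewer in the Molm-14 libraries. EBF1, another B cell factor, had a change of 1.29 and was not called (adjusted p = 0.192, limma). The 6 markers summed to 17.2 to 19.5 CPM with DMSO and 9.33 to 12.2 CPM with RMC-4550, and PAX5 made most of both sums. The part of B cell genes in the CD22 result was not tested.

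SIGLEC10 was the other member called higher in MV4-11 and SKNO-1. In SKNO-1 its reads were 209, 183 and 179 with DMSO and 351, 361 and 391 with RMC-4550, and in MV4-11 102, 108 and 108 against 156, 145 and 187. In Molm-14 they were 36, 31 and 33 against 28, 22 and 34. The treated libraries were thus above all DMSO libraries in SKNO-1 and MV4-11, and the groups overlapped in Molm-14. The log2 change was 0.95 in SKNO-1, 0.51 in MV4-11 and -0.22 in Molm-14 (SE 0.142 each). The change was 1.16 higher in SKNO-1 than in Molm-14 and 0.73 higher in MV4-11 than in Molm-14 (SE 0.201 each). Over all genes tested, responses were called different for 10.9% and 19.5% in these comparisons and for 1.66% in SKNO-1 against MV4-11. Since the changes of members were known, nothing is read from their differences. The MV4-11 call was lost when treated replicate 3 (0.42) or DMSO replicate 1 (0.47) was left out, when the line was fitted alone (0.51) and with no filter on low values (0.51). With quantile normalization SIGLEC10 was called lower in Molm-14 (-0.51). The difference without the libraries over 10% mitochondrial reads was 0.59 in MV4-11 and -0.13 in Molm-14.

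CD33, the most abundant member, changed little. With RMC-4550 its reads were 809, 538 and 750 in Molm-14, 2528, 2272 and 2317 in MV4-11, and 2987, 3166 and 3156 in SKNO-1. The log2 changes were -0.21 in Molm-14, then 0.044 in MV4-11 and -0.14 in SKNO-1 (SE 0.0888 each), and none was called with all libraries in the fit. In CPM the treated libraries lay below all DMSO libraries in Molm-14 and SKNO-1 and overlapped them in MV4-11. Over all genes, treated libraries lay wholly below DMSO for 33.1% of genes in Molm-14 and 35.4% in SKNO-1. Without replicate 2 the treated Molm-14 mean moved from 40.4 to 43.3 CPM and the log2 difference to -0.10, and the MV4-11 difference without such libraries was 0.038. CD33 was called lower in Molm-14 without treated replicate 1 (-0.28), and in SKNO-1 with that line fitted alone or without the libraries over 10% mitochondrial reads (-0.14). As a share of the family sum, CD33 averaged 85.2%, 75.8% and 74.4% with RMC-4550, in the same order of lines.

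SIGLEC6, SIGLEC7 and SIGLEC14 were not called in MV4-11 or SKNO-1. SIGLEC6 had 167, 199 and 226 reads with RMC-4550 in MV4-11 and 241, 231 and 214 in SKNO-1, log2 changes of 0.66 and 0.20 (SE 0.373 each). SIGLEC14 had 64, 69 and 69 in MV4-11 and 63, 84 and 66 in SKNO-1, changes of 0.56 and 0.24 (SE 0.515 each). SIGLEC7 had 46, 87 and 79 in MV4-11 and 84, 122 and 112 in SKNO-1, changes of -0.37 and -0.45 (SE 0.479 each). Treated and DMSO libraries did not overlap for SIGLEC6 and SIGLEC14 in MV4-11, where treated was higher, and for SIGLEC7 in SKNO-1, where it was lower. Without the libraries over 10% mitochondrial reads, the MV4-11 differences were 0.55 for SIGLEC6, 1.04 for SIGLEC14 and -0.47 for SIGLEC7. SIGLEC6 was called higher in MV4-11 with voom weights or log2(CPM + 1), and SIGLEC7 lower in SKNO-1 with that line fitted alone. In Molm-14 all 3 genes had 8 reads or fewer in every library.

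SIGLEC5, SIGLEC9 and SIGLEC11 could be tested in no line. SIGLEC11 in SKNO-1 had 18, 33 and 32 reads with DMSO and 4, 4 and 2 with RMC-4550, so the groups did not overlap, and its mean was 1.28 ± 0.393 against 0.154 ± 0.054 CPM, a ratio of 8.33. SIGLEC9 with RMC-4550 had 7, 8 and 5 reads in Molm-14 and 5, 6 and 2 in SKNO-1, and overlapped DMSO there. In MV4-11 it had 0, 7 and 9 reads, each below the 12, 14 and 12 with DMSO. The treated library at 0 reads, replicate 1, had over 10% mitochondrial reads. The SIGLEC9 log2 difference in MV4-11 was -2.09 with all libraries and -0.79 without those over 10%. With so few reads, nothing is read from it. SIGLEC5 with RMC-4550 had 0 reads in each Molm-14 library, 0, 0 and 1 in MV4-11, and 4, 4 and 7 in SKNO-1, too few to tell a change.

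The other 5 Siglec genes were read for comparison. SIGLEC12, SIGLEC15 and SIGLEC16 were picked out of them after their values were seen, so their changes, p-values and calls are a description. SIGLEC16, which shares its promoter run with SIGLEC11 and whose transcript shares 32.5% of its 50-base stretches with it, had 69, 84 and 83 reads in SKNO-1 with DMSO and 30, 35 and 52 with RMC-4550. Both genes of the pair were thus lower in every treated SKNO-1 library. Since reads of either may be counted for the other, how the fall divides between them cannot be told. The SIGLEC16 change of -1.04 (SE 0.421) was not called (adjusted p = 0.0797, limma). It was called lower with voom weights (adjusted p = 0.00504), log2(CPM + 1), quantile normalization, SKNO-1 fitted alone, mitochondrial share in the model, and without the libraries over 10% mitochondrial reads, with adjusted p from 0.000249 to 0.025 over these settings. SIGLEC12, whose human product is known to have lost sialic acid binding, had 746, 800 and 757 reads in SKNO-1 with DMSO and 357, 361 and 362 with RMC-4550. It fell by 1.10 on the log2 scale (SE 0.284, adjusted p = 0.009, limma), from 35.6 ± 1.15 to 16.6 ± 0.116 CPM. In MV4-11 it had 199, 192 and 199 reads against 162, 181 and 206, and in Molm-14 it had 1 read in 6 libraries.

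SIGLEC15, known from osteoclasts and signalling through TYROBP, had 56, 74 and 64 reads in SKNO-1 with DMSO and 141, 152 and 130 with RMC-4550. The log2 change was 1.12 (SE 0.580) and was not called in the fit of the deposited values, but was with voom weights (adjusted p = 0.00242, limma), log2(CPM + 1) and SKNO-1 fitted alone. In MV4-11 its reads were 17, 18 and 23 against 39, 32 and 42, a change called with log2(CPM + 1) and with mitochondrial share in the model and not otherwise. MAG and SIGLEC8 had 4 reads or fewer in every library.

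**Figure D4:**
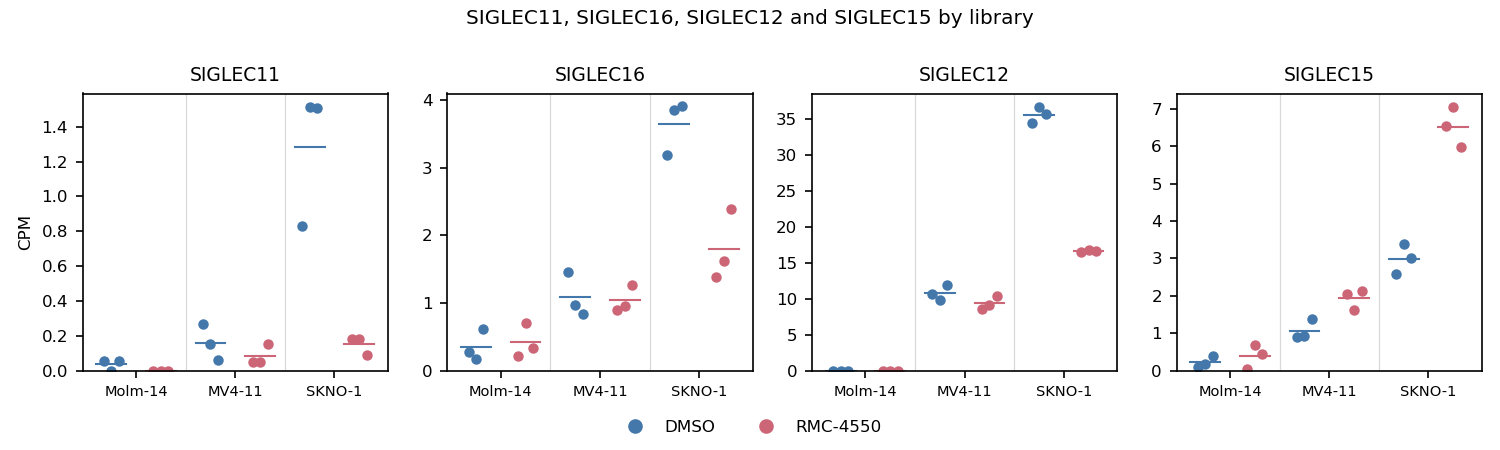
CPM (vertical axis, a scale of its own in each panel) of SIGLEC11, SIGLEC16, SIGLEC12 and SIGLEC15 in the 18 libraries; points are libraries, bars means of 3, blue DMSO and red RMC-4550. In SKNO-1 the first 3 genes are lower with RMC-4550 (SIGLEC12, 35.6 to 16.6) and SIGLEC15 is higher.

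Of 17 genes that couple Siglecs to signalling, 6 were called higher and 4 lower in Molm-14, 4 and 0 in MV4-11, and 8 and 1 in SKNO-1. Their median log2 change was -0.15, 0.28 and 0.29, beside -0.058, -0.010 and -0.047 over all genes. Of all genes tested, 21.5% were called higher and 25.2% lower in Molm-14, 5.85% and 8.03% in MV4-11, and 10.8% and 16.2% in SKNO-1. PTPN6, which encodes SHP1, had changes of -0.15, -0.16 and -0.12 in that order and was called in none; without the libraries over 10% mitochondrial reads it was -0.27 in Molm-14 and -0.063 in MV4-11. PTPN11 fell by 1.00 in Molm-14 (adjusted p = 0.00135, limma), from 242 to 125 CPM, and by 0.64 in SKNO-1 (adjusted p = 0.0367, limma), from 130 to 83.4 CPM. The lowest treated Molm-14 library for PTPN11, 84.9 CPM, was replicate 2 with 15.02% mitochondrial reads, and without it the difference was -0.74. In MV4-11 its change was -0.30 (adjusted p = 0.423, limma). There the 3 libraries with over 10% mitochondrial reads held 106, 110 and 86.5 CPM, and without them the difference was -0.68. Their part in the result was not tested.

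TYROBP, whose product pairs with SIGLEC14 and SIGLEC15, rose by 1.58 in Molm-14 (adjusted p = 2.93e-06, limma), from 43.2 to 131 CPM, and by 0.90 in SKNO-1 (adjusted p = 0.00105, limma), from 120 to 224 CPM. In MV4-11 its change was 0.52 (adjusted p = 0.0576, limma). Without the libraries over 10% mitochondrial reads the TYROBP differences were 1.41 in Molm-14 and 0.83 in MV4-11. The feedback inhibitor SOCS3 showed the largest rise of the list in SKNO-1, 0.96 (adjusted p = 4.03e-05, limma).

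Genes that make, transfer or remove sialic acid, the ligand of the family, had calls in both directions. Of 31 such genes, 21 were tested in Molm-14, with 5 called higher and 8 lower, and 23 in each of MV4-11 and SKNO-1, with 3 higher and 1 lower, and 2 higher and 1 lower. Their median changes were -0.053, -0.0087 and 0.073. Of all genes tested, 21.5% were called higher and 25.2% lower in Molm-14, 5.85% and 8.03% in MV4-11, and 10.8% and 16.2% in SKNO-1. Nothing is read from the counts of this list. ST8SIA6, which encodes an enzyme that adds sialic acid to sialic acid, rose by 1.72 in SKNO-1 (adjusted p = 3.16e-06, limma), from 11.4 to 37.5 CPM, and by 1.05 in MV4-11 (adjusted p = 0.000829, limma), from 12.4 to 25.5 CPM. CMAS, the enzyme that activates sialic acid, fell by 0.41 in MV4-11 (adjusted p = 0.00233, limma) and by 0.26 in SKNO-1 (adjusted p = 0.0227, limma). In Molm-14 ST8SIA6 averaged 0.300 and 0.983 CPM and was not tested. Among called genes with a mean of 5 CPM or more there, the largest rise was in CTSA, 0.68, whose product stabilises a lysosomal sialidase, and the largest fall in NANP, 0.96, which encodes a phosphatase of sialic acid synthesis. The Molm-14 differences without the libraries over 10% mitochondrial reads were 0.71 for CTSA and -0.81 for NANP, and the MV4-11 differences 0.90 for ST8SIA6 and -0.39 for CMAS.

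Glycoproteins known to carry Siglec ligands were counted over 10 genes. In Molm-14 3 of 9 tested were called higher and 0 lower, in MV4-11 5 of 8 and 0, and in SKNO-1 3 of 9 and 1. Their median changes were 0.51, 0.66 and 0.29. Of all genes tested, 21.5% were called higher and 25.2% lower in Molm-14, 5.85% and 8.03% in MV4-11, and 10.8% and 16.2% in SKNO-1. SELPLG, which encodes the selectin ligand PSGL-1, rose by 1.20 in MV4-11 (adjusted p = 0.000523, limma), from 109 to 249 CPM, and by 1.07 in SKNO-1 (adjusted p = 0.000623, limma), from 120 to 251 CPM. CD52, a small glycoprotein that binds SIGLEC10, rose by 2.17 in Molm-14 (adjusted p = 1.3e-06, limma), from 3.52 to 16.5 CPM. Without the libraries over 10% mitochondrial reads, the CD52 difference in Molm-14 was 1.89 and the SELPLG difference in MV4-11 0.98. PODXL, a sialomucin, fell by 0.67 in SKNO-1 (adjusted p = 0.0223, limma).

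SIGLEC1 is listed among interferon-induced genes, and 30 other genes of that kind were counted beside it. In Molm-14 16 of 27 tested were called higher, in MV4-11 29 of 30 and in SKNO-1 26 of 30, with 0 lower in each. Their median log2 changes were 1.05, 2.41 and 1.53, beside -0.058, -0.010 and -0.047 over all genes. Of all genes tested, 21.5%, 5.85% and 10.8% were called higher in the same order of lines. The list was chosen with earlier results of these data known, so nothing is read from its counts. IFI44L rose by 5.85 in MV4-11 (adjusted p = 8.24e-10, limma), from 0.443 to 25.97 CPM. IFIT1 rose by 3.31 in SKNO-1 (adjusted p = 3.21e-09, limma), from 0.958 to 9.84 CPM, and OAS2 by 2.32 in Molm-14 (adjusted p = 2.04e-09, limma), from 3.66 to 18.4 CPM. Each had the largest called rise of its line among the genes of the list with a mean of 5 CPM or more. With DMSO, IFI44L in MV4-11 and IFIT1 in SKNO-1 averaged under 1 CPM. They passed the filter mainly through the treated libraries, so their rises are a description. Without the libraries over 10% mitochondrial reads, the IFI44L difference in MV4-11 was 5.62 and the OAS2 difference in Molm-14 2.40.

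The 5 genes whose log2 levels followed SIGLEC1 most closely over the 18 libraries were METTL7A, IFI6, ADAMTSL4, LINC00205 and IL11RA, with Pearson correlations of 0.97, 0.97, 0.97, 0.96 and 0.96. The points share lines and treatments, so the correlations describe 6 groups more than 18 independent samples. IFI6, an interferon-induced gene, averaged 2.42 and 12.4 CPM in Molm-14 with DMSO and RMC-4550, 7.92 and 57.7 CPM in MV4-11, and 20.2 and 44.1 CPM in SKNO-1. METTL7A averaged 24.2 and 64.5, 45.2 and 72.4, and 55.1 and 85.9 CPM in the same order. Like SIGLEC1, both were lowest in Molm-14 with DMSO. The 5 genes were picked for following SIGLEC1, so this likeness comes from the choice and is not a separate result.

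**Figure D5:**
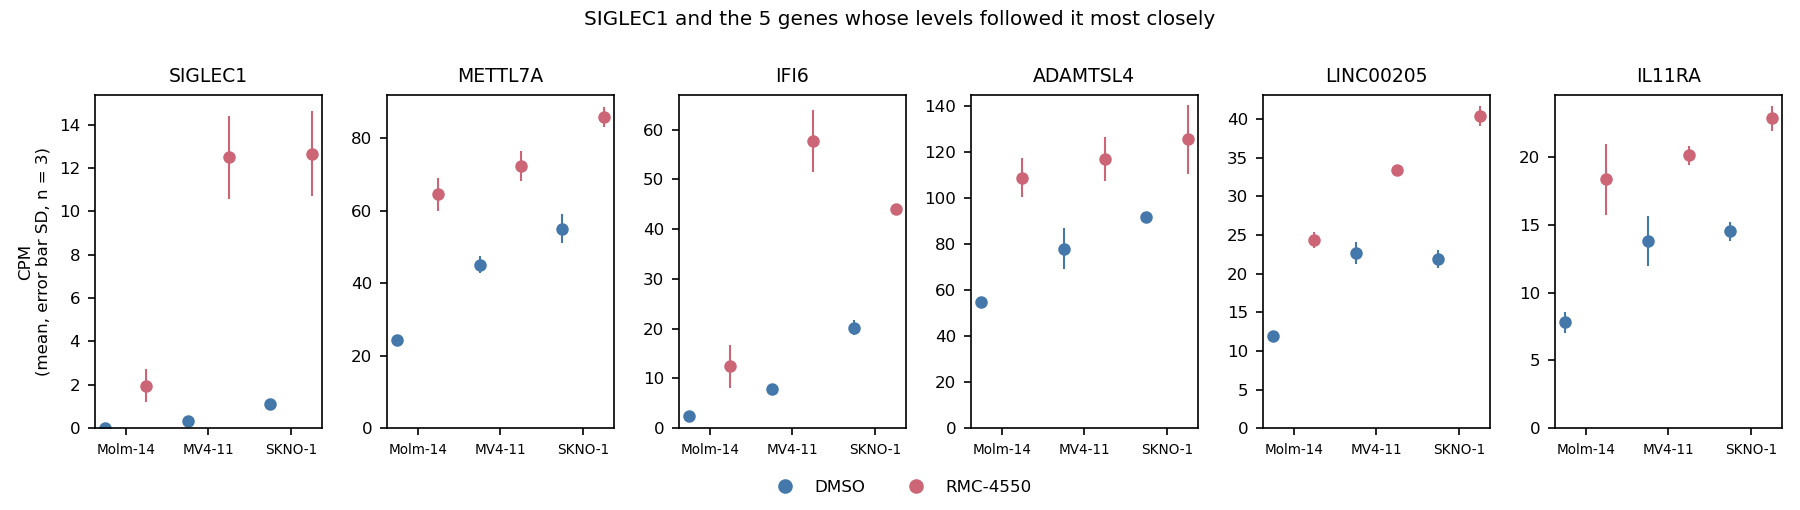
Mean CPM (vertical axis, own scale per panel, from 0; error bars SD, n = 3) of SIGLEC1 and the 5 genes most correlated with it, in the 3 lines with DMSO (blue) and RMC-4550 (red). Each gene is higher with RMC-4550 than with DMSO in each line, and IFI6 reaches 57.7 CPM in MV4-11. The 5 genes were picked for following SIGLEC1, so their likeness to it comes from that choice.

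Macrophage markers were set beside SIGLEC1, since it marks those cells. The 8 markers summed to 1.00 to 1.78 CPM with DMSO and 2.37 to 3.17 CPM with RMC-4550 in Molm-14, to 1.53 to 1.56 and 2.69 to 3.10 CPM in MV4-11, and to 2.08 to 3.06 and 7.26 to 8.77 CPM in SKNO-1. The summed ranges with RMC-4550 lay above those with DMSO, as for SIGLEC1. Such a separation was common among single genes, at 26.9%, 11.1% and 26.6% of all genes tested (same order of lines). With RMC-4550, 1 of 8 markers averaged at least 1 CPM in Molm-14. There C1QA, C1QB, C1QC, MRC1 and MSR1 had 3 reads or fewer in each treated library, so that sum rests on few genes. Nothing is read from the sums about the markers as a set. Of the 8, 1 could be tested in Molm-14 and 0 were called, 0 could be tested in MV4-11, and in SKNO-1 3 of 4 were called higher. In SKNO-1 with DMSO, 0 of 8 averaged 1 CPM, so the tested markers passed the filter mainly through the treated libraries. Nothing is read from that count, and 10.8% of all genes tested were called higher there. The part of macrophage markers in the SIGLEC1 result was not tested. In SKNO-1 with RMC-4550, 4 of 8 averaged at least 1 CPM, among them the complement gene C1QA at 3.10 CPM and the scavenger receptor gene MARCO at 1.59 CPM, while CD14 and CD163 had 3 reads or fewer in each library. In MV4-11 with RMC-4550, where SIGLEC1 averaged 12.5 CPM, 1 of 8 reached 1 CPM, and C1QB, C1QC and MRC1 had 3 reads or fewer in each library.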

How the data were processed

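Polyadenylated RNA of 18 cell line cultures went through DNA nanoball sequencing, per the labels' protocols. The authors deposited 1 table of log2 values for 40184 Ensembl gene IDs, of which 40069 matched a symbol. The submitters' processing notes name FastQC, STAR, limma and GRCh38; versions, the counter and its strand setting are not given in the sources used here. The deposited log2 values are CPM of an effective library, with 0.5 reads added before scaling. Undoing this gave whole reads, within 0.05, for all values under 200 reads, and levels in CPM were computed from those reads. Errors cover counting and culture spread only, and reads without molecular identifiers are not independent molecules.

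limma 3.58.1 (R 4.3.3, lmFit and eBayes with trend, two-sided) was fitted to the deposited log2 values of all 18 samples with 1 coefficient per group, for 16262 genes that reached 1 CPM in 3 or more libraries. Genes were tested where at least 3 libraries of the comparison also had 1 CPM, with Benjamini-Hochberg adjustment over all genes tested and calls under 0.05. The script was tested on simulated data. A group with 3 reads or fewer in each library was at the floor, and folds against it are lower bounds. Lengths are unions of GENCODE 29 exons. The members and gene lists were chosen with earlier results of these data known. Named genes were the 10 members, PTPN6, PTPN11 and TYROBP, the largest called rise and fall per list and line at a mean of 5 CPM or more, and the 5 genes most like SIGLEC1; marker genes, SIGLEC12, SIGLEC15 and SIGLEC16 come from fixed lists and were picked out of them after their values were seen. 1 gene that the rule names is not reported here. Alternatives were log2(CPM + 1), no filter on low values, median-ratio scaling, quantile normalization, a fit of the compared samples alone, a replicate block, the mitochondrial share as a covariate, voom weights on recovered reads, omission of libraries over 10% mitochondrial reads, and leaving out each library. Figures were drawn with matplotlib.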

Additional observations from a re-analysis of the deposited data

Results flagged for a closer look

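These responses differed between lines in limma's test of the difference itself, over all genes tested. SIGLEC10 is a member of a family chosen with its responses known, so its differences are a description. Its log2 change with RMC-4550 was 1.16 higher in SKNO-1 than in Molm-14 (SE 0.201) and 0.73 higher in MV4-11 than in Molm-14 (SE 0.201), or 1.07 and 0.72 without the libraries over 10% mitochondrial reads. SIGLEC1 was not compared between Molm-14 and the other lines, since its Molm-14 change is fitted against 0 reads.

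Among genes of the lists, the SKNO-1 change differed from the Molm-14 change by -0.47 for CTSA (adjusted p = 0.0297, limma), -1.74 for CD52 (adjusted p = 0.00181, limma), -1.17 for PODXL (adjusted p = 0.0146, limma) and 1.29 for IFIT1 (adjusted p = 0.0019, limma). The SKNO-1 change differed from the MV4-11 change by -1.48 for IFIT1 (adjusted p = 0.00263, limma), -1.55 for OAS2 (adjusted p = 0.000232, limma) and -3.02 for IFI44L (adjusted p = 0.000571, limma). The MV4-11 change differed from the Molm-14 change by -1.06 for TYROBP (adjusted p = 0.00864, limma), 0.83 for NANP (adjusted p = 0.0117, limma), -1.41 for CD52 (adjusted p = 0.00658, limma), 2.78 for IFIT1 (adjusted p = 3.39e-06, limma), 1.49 for OAS2 (adjusted p = 6.57e-05, limma) and 2.61 for IFI44L (adjusted p = 0.000414, limma). With the libraries over 10% mitochondrial reads left out, and so 1 MV4-11 library with DMSO left, the MV4-11 difference from Molm-14 was -0.59 for TYROBP, 0.40 for NANP and -0.92 for CD52. The other differences named here moved by less than 1.5 times.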

How the results depend on the processing

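SIGLEC1 was singled out by its rise in these libraries, so its direction under the alternatives is a description, and the size of the rise depended on the scale. With log2(CPM + 1) the change was 1.54 in Molm-14, with 3.33 in MV4-11 and 2.68 in SKNO-1, and with quantile normalization 4.43 in Molm-14 and 6.23 in MV4-11. Leaving out any 1 library, the difference of mean log2 values was 5.78 to 6.30 in Molm-14, 4.96 to 5.50 in MV4-11 and 3.37 to 3.60 in SKNO-1. Without the libraries over 10% mitochondrial reads it was 5.78 in Molm-14 and 5.35 in MV4-11. Leaving out those, or a treated Molm-14 or MV4-11 library, left SIGLEC1 under the filter, so these differences have no test. The CD33 change in MV4-11, 0.044 and not called, ran from -0.022 (without treated replicate 1) to 0.085 (without treated replicate 2) when 1 library was left out. Of 622 values of single Siglec genes under an alternative, 583 and the 5 SIGLEC1 values above kept their direction and side of the threshold, 29 passed it newly, 4 lost it, each of these SIGLEC10 in MV4-11, and 1 changed sign, the CD33 value. Settings that left a gene under the filter are not among the 622, so tests lost that way are not counted. Examples are CD22 in Molm-14 without any 1 treated library, and SIGLEC6, SIGLEC7 and SIGLEC14 levels against Molm-14 without any 1 library of the other line.

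Counts of called genes moved most in MV4-11, from 2045 to 674 with its samples fitted alone, 5054 with mitochondrial share in the model and 3897 without the libraries over 10% mitochondrial reads. In SKNO-1 the count of 3969 became 8451, 7270 and 7818 under the same 3 settings. Leaving out 1 library gave 5357 to 6526 calls in Molm-14, 1177 (without treated replicate 3) to 3005 in MV4-11 and 2792 to 3108 in SKNO-1. For levels with DMSO it gave 7594 to 8330 for SKNO-1 against Molm-14, 3991 (without MV4-11 DMSO replicate 3) to 7614 against 6264 for SKNO-1 against MV4-11, and 5339 to 8290 for MV4-11 against Molm-14. The cause was not tested.

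No pairing of the samples by replicate number was seen, though a check on 3 samples per group cannot exclude it. Deviations of same-numbered samples correlated at -0.052, -0.041 and 0.0028 in Molm-14, 0.39, 0.59 and -0.40 in MV4-11, and 0.13, 0.013 and 0.040 in SKNO-1, and in no line did every sample correlate best with its own number. With a replicate block the counts were 6099, 1734 and 3601 for the 3 lines in that order, and 9425, 5770 and 7425 for the levels, and 50 of 51 values kept their side of the threshold; the exception was the SIGLEC15 level in SKNO-1 against MV4-11, called with the block (adjusted p = 0.0414, limma). Members with under about 10 reads per library are limited by depth.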
